A study of Homo sapiens with 6 samples.

Results

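The transcriptional state of HCT116 cells, a human colorectal carcinoma line, was compared between Nut 1h, that is 1 h of treatment with 10 µM Nutlin-3a, and Nut 0h, that is cells given DMSO as vehicle. There were 2 biological replicates per condition, so 4 of the 6 RNA-seq libraries of the series entered the comparison directly. The 2 libraries taken after 10 h (Nut 10h) helped to filter and scale the counts and to estimate the spread. Some of their values are given for reference. All 57905 genes of the count matrix were considered, and 16565 of them had enough counts to be tested. A single cell line was used, and RNA was isolated from cell pellets, so that fewer transcripts made and more transcripts degraded cannot be told apart here.

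Nutlin-3a occupies the pocket of MDM2 that holds p53. MDM2 is the ubiquitin ligase that keeps p53 scarce, and it is itself encoded by a p53 target gene, so that p53 activity raises the level of its own inhibitor. Freed p53 binds DNA as a tetramer at paired half-sites and activates genes for cell cycle arrest, DNA repair, apoptosis and metabolism, and early after stabilization the transcripts of its targets are still accumulating. HCT116 cells are much used to follow this response. Immediate early genes, which need no new protein synthesis for their induction, answer within minutes to serum, growth factors and mechanical or chemical stress, and are therefore also of interest at so early a time.

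The Nut 0h libraries held 35473485 and 35141106 counts and the Nut 1h libraries 31731267 and 26068076, and between 22966 and 25387 genes had at least 1 count in a library of either condition. Epithelial transcripts marked the cells as labelled: the summed level of 14 epithelial markers, in CPM, the share of a library scaled to a common total, ranged from 5590 to 6260 at Nut 0h and from 4020 to 4220 at Nut 1h, although VIL1, CDX1 and KRT20, genes of differentiated intestinal cells, stayed under 1 CPM. Of 8 leukocyte markers 7 stayed under 1 CPM in all 4 libraries and PTPRC had no count. Of 8 fibroblast markers 6 stayed under 1 CPM and DCN and LUM had no count, while COL1A1 reached 42.2 CPM. All 5 endothelial markers found in the matrix stayed under 1 CPM. The Nut 1h libraries also held more counts from the mitochondrial genome, 8.44% and 8.15% of the total, than the Nut 0h libraries, with 4.99% and 6.18%.

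Without any correction for base composition, 11077 genes were called at an adjusted p of at most 0.05 (edgeR's quasi-likelihood test with Benjamini-Hochberg adjustment), which is 66.9% of those tested, with 34.5% higher and 32.3% lower at Nut 1h. The direction of these changes followed the GC content of the transcript. The median log2 fold change was 0.90 for the 301 genes with a GC content of up to 35%, 0.18 for the 2809 genes between 45% and 50%, and -1.48 for the 634 genes over 65%. In the first of these classes 85.0% of genes were higher at Nut 1h and 1.33% lower, and in the last 0.158% were higher and 89.4% lower. The trend was seen in each of the 4 pairs of a Nut 1h and a Nut 0h library (Pearson r across 16137 genes between -0.70 and -0.66), whereas the 2 Nut 0h replicates differed from each other with r = -0.27, the 2 Nut 1h replicates with r = 0.15, and the 4 pairs of a Nut 10h and a Nut 0h library with r between -0.19 and 0.16. Genes are not independent replicates and these r describe the libraries only.

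**Figure D1:**
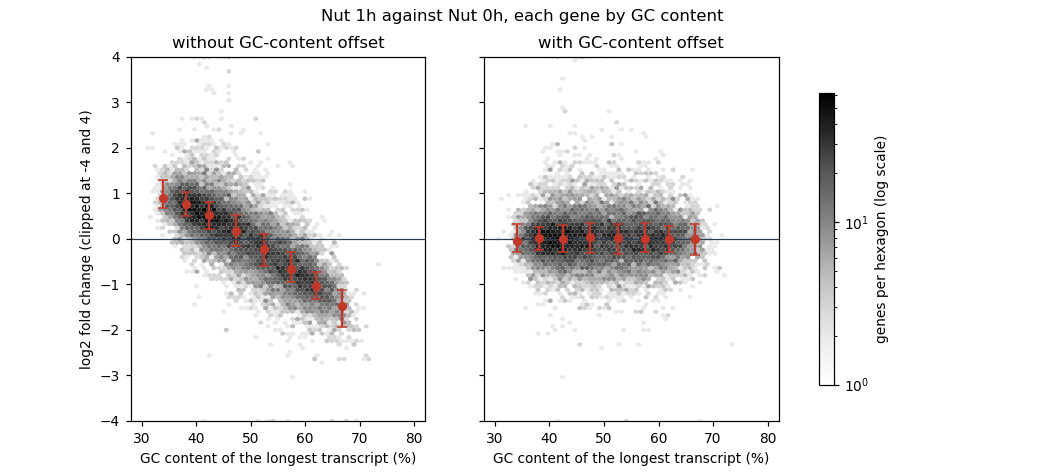
Each hexagon holds genes at a given GC content of the longest transcript (x axis, percent) and log2 fold change of Nut 1h against Nut 0h (y axis), without the GC-content offset on the left and with it on the right, with the number of genes on a log scale of grey. Red points and bars are the median and quartiles in 8 classes of GC content: on the left the medians run from 0.90 down to -1.48, and on the right all lie within 0.05 of 0.

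A second fit therefore removed, from each library, the smooth dependence of its counts on GC content, by an offset in the same edgeR model. With the offset r across genes was -0.05, and 7439 of the 16137 genes with a known GC content were called, which is 46.1%, with 22.7% higher and 23.4% lower. This count was 4621 without Nut 1h replicate 1. Both fits called 2325 genes higher (14.4%) and 2352 lower (14.6%). A further 507 genes changed from higher to lower and 574 from lower to higher, 760 genes were called higher and 921 lower only with the offset, and 2747 higher and 2345 lower calls were lost. The offset takes away every change that runs with GC content, whatever its source, and a response of GC-rich or GC-poor transcripts to Nutlin-3a and a difference in how the libraries were made cannot be told apart in this design. In what follows, a gene "rose" or "fell" if it was called with the GC-content offset, and the value without the offset is given where the calls differ. Sizes given with these verbs or in brackets are log2 fold changes with the offset. Normalized counts are scaled for library size alone, and GC-adjusted counts also for the GC-content trend.

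Genes known as p53 targets were the first point of interest. Of 77 such genes in 4 functional lists, 74 were tested, and 73 of them had a GC content. With the offset 28 rose, 12 fell and 33 were not called, that is 38.4% higher against 22.7% of all genes and 16.4% lower against 23.4%. Their median log2 fold change was 0.11, beside 0.01 for all genes. Without the offset 31 of the 74 were higher and 22 lower, against 34.5% and 32.3% of all genes. Among the 41 targets without exon overlap 13 rose and 10 fell with the offset (31.7% and 24.4%, against 23.8% and 22.1% of all genes without exon overlap). Of the 28 genes that rose, 17 were also higher without the offset, 5 were not called without it, and 6 were lower without it.

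In the list for feedback and p53 regulation 7 of 15 genes rose and 2 fell (46.7% and 13.3%, against 22.7% and 23.4% of all genes). Of the 9 without exon overlap 3 rose and 2 fell, against 23.8% and 22.1% of all such genes. Without the offset 8 of the 15 were higher and 4 lower. MDM2 (chromosome 12, 69201957 to 69239324) had 1688 and 2083 normalized counts with vehicle and 8694 and 8500.1 with Nutlin-3a, so that both treated libraries were above both controls. The log2 fold change was 1.52 (SE 0.08, adjusted p = 2.23e-09) with the offset and 2.19 (SE 0.13, adjusted p = 3.55e-08) without it. Small parts of its exons, 5.29% on the same and 11.1% on the opposite strand, overlap other genes. TP53INP1, which promotes the phosphorylation of p53 and autophagy, rose by 0.71, from 254 and 295 to 743 and 696 normalized counts. AEN, an exonuclease that takes part in apoptotic DNA fragmentation, rose from 2713 and 2437 to 3668 and 4054, a log2 fold change of 0.69 (adjusted p = 2.33e-06). The p53 phosphatase gene PPM1D and the cyclin gene CCNG1, targets that act in negative feedback, were higher only without the offset, at 0.46 and 0.76, and had -0.11 and 0.01 with it. The genes that fell were CCNG2, at -0.44, and PIDD, the scaffold of a caspase-activating complex, at -0.25. PIDD was also lower without the offset, at -1.63. CCNG2 was not called without the offset, where its log2 fold change was 0.19 (adjusted p = 0.261). With the offset its call was lost without Nut 1h replicate 2 (edgeR, adjusted p = 0.0714), and that of PIDD without Nut 0h replicate 2 or either Nut 1h replicate (0.0659 to 0.0934).

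The promoter of AEN is shown because this gene rose to a like extent in both fits and carries a pair of p53 half-site cores next to its start. The sequence is the RefSeq window on GRCh38.p14 from 250 bases before to 50 bases after the start of transcription, chr15:88621090-88621389 on the plus strand, read 5′ to 3′, with the match in capitals.
AEN: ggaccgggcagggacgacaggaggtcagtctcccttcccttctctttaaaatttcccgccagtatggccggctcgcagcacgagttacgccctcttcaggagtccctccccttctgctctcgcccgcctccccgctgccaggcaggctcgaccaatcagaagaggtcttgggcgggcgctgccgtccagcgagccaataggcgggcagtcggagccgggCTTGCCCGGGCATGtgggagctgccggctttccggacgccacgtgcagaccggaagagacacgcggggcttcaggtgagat
The motif searched was the p53 half-site core pair, on both strands. Of the 74 p53 targets tested, 62 had a window, and 12 of these had a match (19.4%), which included FAS, SESN1, TRIAP1 and GDF15 besides AEN. Among all 27305 genes with a window, 5.85% had one. A match is a description of the letters and was not tested for binding, and many p53 sites lie outside such windows.

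In the list for growth arrest and repair 10 of 22 genes rose and none fell (45.5% and 0% against 22.7% and 23.4% of all genes), a count that holds for the offset fit only, since without it 12 were higher and 3 lower. BTG2, an antiproliferative regulator of mRNA deadenylation, was about 2-fold as high in both treated libraries, going from 1039.8 and 955 to 2075 and 2097 normalized counts (log2 fold change 1.15, SE 0.07, adjusted p = 1.48e-08). GADD45A, a stress sensor that inhibits cell cycle kinases, had 1176 and 989 normalized counts with vehicle and 2146 and 2318 with Nutlin-3a, and rose by 1.15 (adjusted p = 6.55e-08). PLK2, a kinase of the centriole cycle, rose by 1.12, from 1021 and 1063 to 2713 and 2756 normalized counts. These 3 genes have transcripts near the middle of the GC range (50.5%, 50.7% and 45.8%), and their log2 fold changes without the offset were 1.06, 1.04 and 1.39.

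CDKN1A, which encodes the cyclin-dependent kinase inhibitor p21, and PLK3, a stress-activated kinase, depended on the offset. CDKN1A had 10629 and 9286 normalized counts with vehicle and 9837 and 10726 with Nutlin-3a, values that overlap between the groups, and a log2 fold change of 0.05 (adjusted p = 0.704). After GC adjustment its counts went from 8620.1 and 8156 to 13684 and 14260.3, a rise of 0.74 (SE 0.07, adjusted p = 1.2e-06). The like values of PLK3 were -0.01 (adjusted p = 0.966) and 0.89 (adjusted p = 8.22e-08). Both have GC-rich transcripts (58% and 60.8%). RRM2B, a ribonucleotide reductase subunit for DNA repair, and ZMAT3, an RNA-binding regulator of splicing, went the other way: their GC contents were 35.1% and 38.2%, and they were higher without the offset, at 1.04 and 0.90, and not called with it, at 0.15 (adjusted p = 0.0752) and 0.16 (adjusted p = 0.15). GDF15, a secreted stress cytokine, was lower without the offset at -1.35 and not called with it at -0.15 (adjusted p = 0.0838).

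Of 15 apoptosis genes 8 rose and 4 fell (53.3% and 26.7%, against 22.7% and 23.4% of all genes), and without the offset 7 were higher and 5 lower. TNFRSF10B and TNFRSF10A encode death receptors for the ligand TRAIL, and rose by 0.79 and 0.63. TNFRSF10B had 4003 and 3984 normalized counts with vehicle and 6503 and 7013 with Nutlin-3a. PMAIP1, the BH3-only protein NOXA, had 1482 and 1404 normalized counts with vehicle and 4329 and 3939 with Nutlin-3a and rose by 0.70 (SE 0.08, adjusted p = 3.7e-06), or by 1.52 without the offset. BBC3, the BH3-only protein PUMA, has a GC content of 69.7% and changed its direction with the offset: normalized counts went from 1176 and 934 to 521 and 556, a log2 fold change of -0.97 (adjusted p = 1.71e-05), whereas GC-adjusted counts went from 682 and 659.6 to 1184 and 1166, a log2 fold change of 0.81 (adjusted p = 7.49e-07). BAX, the pore-forming effector of mitochondrial apoptosis, was likewise lower without the offset (-0.54) and rose by 0.21 (adjusted p = 0.021) with it, and FAS, the death receptor for the Fas ligand, was higher in both fits, at 1.02 and 0.32. The genes that fell were SIVA1 at -0.34, the membrane protein gene PERP at -0.33, the anti-apoptotic BCL2L1 at -0.25 and APAF1, the scaffold of the apoptosome, at -0.25. Of these PERP was higher without the offset, at 0.30, and APAF1 was not called there, at 0.29 (adjusted p = 0.068). The smaller of these calls depended on single libraries: BAX and FAS were not called without Nut 0h replicate 2 (0.15 and 0.24) or Nut 1h replicate 2 (0.15 and 0.27), SIVA1 without Nut 1h replicate 1 (-0.29), APAF1 without any 1 of the 4 (-0.30 to -0.21), nor, without the offset, PERP (0.29 to 0.30). Where genes whose exons overlap another gene of the matrix were left out, 3 of 7 apoptosis genes rose and 3 fell, against 23.8% and 22.1% of all such genes.

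The targets with roles in metabolism and redox control showed 3 rises and 6 falls among 21 genes with a GC content (14.3% and 28.6%, against 22.7% and 23.4% of all genes). Without the offset 4 of 22 were higher and 10 lower. C12orf5, which encodes the fructose bisphosphatase TIGAR, had 317 and 325 normalized counts with vehicle and 699 and 685 with Nutlin-3a and rose by 0.52 (adjusted p = 0.000346). FDXR, a mitochondrial reductase, and SESN2, a sestrin that restrains mTORC1, were lower without the offset (-0.61 and -0.59) and rose with it by 0.38 and 0.22, although SESN2 was not called without Nut 0h replicate 2 or either Nut 1h replicate (0.13 to 0.23). GPX1, a glutathione peroxidase, fell in both fits, from 14762 and 13181 to 4153 and 4591 normalized counts (log2 fold change -0.48, adjusted p = 2.38e-05), and so did NINJ1, a mediator of membrane rupture, with -0.62 (adjusted p = 1.99e-05). PANK1, a kinase of coenzyme A synthesis, had -0.73 with the offset and was not called without it (log2 fold change -0.03, adjusted p = 0.856).

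**Figure D2:**
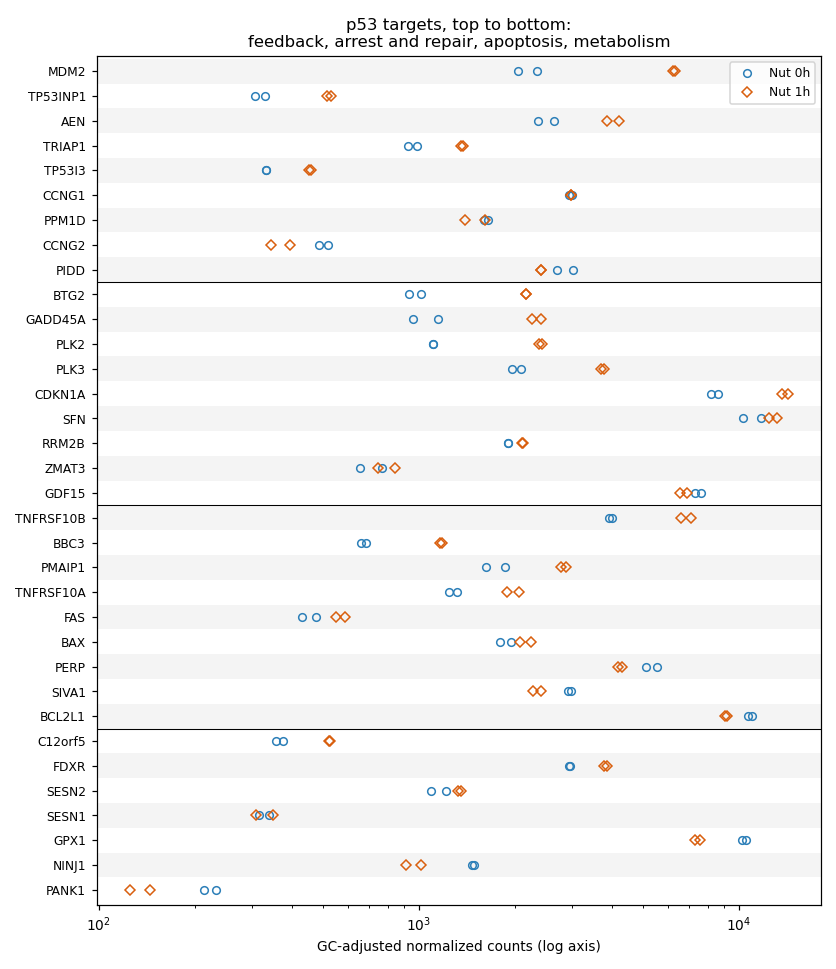
GC-adjusted normalized counts (x axis, log scale) of 34 p53 targets in the 2 Nut 0h libraries (blue circles) and the 2 Nut 1h libraries (orange diamonds), ordered by function from top to bottom. MDM2, BTG2, GADD45A, PLK2, PLK3, CDKN1A, TNFRSF10B and BBC3 lie apart to the right at Nut 1h, CCNG1, PPM1D, ZMAT3 and SESN1 overlap, and CCNG2, PERP, GPX1, NINJ1 and PANK1 lie to the left.

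The largest rises among known response genes were those of immediate early genes. Of 33 such genes 23 rose and 7 fell (69.7% and 21.2%, against 22.7% and 23.4% of all genes). Their median log2 fold change was 0.51, against 0.01. Without the offset 14 were higher and 13 lower (42.4% and 39.4%, against 34.5% and 32.3%). This balance turned under DESeq2 and without Nut 0h replicate 2, and 6 of the lower genes rose once GC content was accounted for. The normalized counts of the 4 libraries did not overlap for 15 genes upwards and for 16 downwards, where 84.8% of all tested genes did not overlap between the groups in either direction. NR4A3, an orphan nuclear receptor, was nearly silent at Nut 0h with 15.5 and 32.9 normalized counts and reached 494 and 430.4 at Nut 1h, a log2 fold change of 4.05 (SE 0.24, adjusted p = 9.38e-09). EGR3 and EGR2, zinc finger transcription factors, rose from 74.4 and 73.2 to 722 and 712 and from 80.2 and 47.9 to 444 and 429, log2 fold changes of 3.57 and 3.25. These 3 genes were higher to a like extent without the offset, at 4.25, 3.28 and 2.77. EGR1, the most abundant of the family, had 15450.5 and 10325 normalized counts with vehicle and 16225 and 18280.1 with Nutlin-3a. The controls lay farther from each other than the treated libraries did, the higher control came close to the lower treated library, and the log2 fold change was 0.91 (adjusted p = 2.39e-05) with the offset. Without it the value was 0.42, a call that was lost without Nut 0h replicate 2 or either Nut 1h replicate (0.15 to 0.51), and with RLE size factors or by DESeq2 (both 0.39). ATF3, a stress-induced factor of the ATF and CREB family, rose from 732 and 617 to 1973 and 2168 (log2 fold change 1.41).

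Not all immediate early genes went up. FOS, the partner of JUN in the AP-1 factor, fell from 3379 and 3190.0 to 1305 and 1311 normalized counts, a log2 fold change of -1.05 (SE 0.13, adjusted p = 1.38e-05), while the same fit gave 0.99 (adjusted p = 0.000107) for FOSB and 0.98 (adjusted p = 2.5e-07) for JUN. Without the offset FOSB was not called, at 0.33 (adjusted p = 0.0777). KLF2, a shear stress-responsive factor, fell from 6469 and 5352 to 985 and 1222 (log2 fold change -1.49). IER5L had the largest fall in this list, from 10948 and 8554 to 1008 and 1036 (log2 fold change -1.97), but 41.8% of its exonic bases lie opposite another gene. MYC, listed here and among Wnt targets, fell from 24725 and 22018 to 12840.1 and 14151 (log2 fold change -0.84, adjusted p = 2.72e-06).

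The promoters of EGR1 and EGR2 are shown because both genes rose and both carry the CArG box, the element that serum response factor binds in many immediate early genes. The RefSeq windows on GRCh38.p14 are chr5:138465229-138465528 on the plus strand and chr10:62816317-62816616 on the minus strand, read 5′ to 3′ along the gene, with CArG boxes in capitals.
EGR1: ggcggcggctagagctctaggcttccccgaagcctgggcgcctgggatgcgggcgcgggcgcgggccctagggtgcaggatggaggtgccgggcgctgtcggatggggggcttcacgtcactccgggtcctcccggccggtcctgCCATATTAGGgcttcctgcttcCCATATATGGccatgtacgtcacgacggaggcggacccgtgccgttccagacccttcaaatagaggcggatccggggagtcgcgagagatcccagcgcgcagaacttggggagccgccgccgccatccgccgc
EGR2: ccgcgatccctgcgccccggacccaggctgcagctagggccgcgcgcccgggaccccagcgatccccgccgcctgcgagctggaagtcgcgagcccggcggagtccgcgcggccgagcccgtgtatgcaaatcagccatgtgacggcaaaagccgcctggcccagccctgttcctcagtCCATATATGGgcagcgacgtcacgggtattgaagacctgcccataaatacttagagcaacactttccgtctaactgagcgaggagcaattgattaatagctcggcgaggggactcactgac
The EGR1 window holds 2 CArG boxes and the EGR2 window 1, which is one of 3 annotated starts of that gene. Both strands were searched. Of the 33 immediate early genes 23 had a window, and 3 of these, namely EGR1, EGR2 and SRF, held a CArG box, against 1.6% of all genes with a window. SRF, which encodes serum response factor, had 4649 and 4151 normalized counts with vehicle and 4041 and 4143 with Nutlin-3a, and rose only with the offset, by 0.80 (adjusted p = 1.15e-07), beside -0.10 (adjusted p = 0.371) without it. Binding at these letters was not measured here.

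Some of the genes that answer to YAP and TEAD, to ERK and to TGF-beta had further large rises. The medians of these lists with the offset were -0.04, 0.08 and 0.32, beside 0.01 for all genes. Among 16 YAP and TEAD targets 5 rose and 5 fell (31.2% each, against 22.7% and 23.4% of all genes), and without the offset 6 were higher and 5 lower. The 3 largest rises were as follows: CTGF and CYR61, secreted matricellular proteins, rose from 265 and 214 to 1624 and 1576 and from 2324 and 1723 to 11535 and 12479.6 normalized counts (log2 fold changes of 2.91 and 2.44), and AMOTL2, a feedback inhibitor of YAP, by 1.48. Of 19 ERK feedback inhibitors 7 rose and 4 fell (36.8% rose, against 22.7% of all genes), but without the offset 6 of 20 were higher and 7 lower. The phosphatase genes DUSP5 and DUSP6, which switch off ERK, rose by 1.14 and 0.48, whereas the receptor signalling inhibitor SPRY1 fell from 186 and 211 to 69.2 and 56.6 (log2 fold change -1.99, adjusted p = 5.18e-07). Among 18 targets of TGF-beta and BMP 8 rose and 3 fell (44.4% and 16.7%), and without the offset 7 were higher and 5 lower. KLF10 rose by 1.01, and the inhibitory SMADs went apart, with SMAD7 at 1.41 (adjusted p = 2.47e-05) and SMAD6, which restrains BMP signalling, at -1.49 (adjusted p = 1.38e-06). The corepressor gene TGIF1 fell by 1.41, and ID1, a BMP-induced inhibitor of differentiation factors, fell by 0.40.

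SLC30A1, the zinc exporter of the plasma membrane, had the largest rise with the offset among the 6 metallothionein and zinc genes tested, and with 234 and 270.5 normalized counts with vehicle and 3023 and 2794 with Nutlin-3a it was more than 10 times as high in both treated libraries. Its log2 fold change was 2.92 (SE 0.08, adjusted p = 2.97e-12) with the offset and 3.53 without it. Of the 6 genes 4 rose and 1 fell (66.7% and 16.7%, against 22.7% and 23.4% of all genes), and without the offset 3 were higher and 1 lower, against 34.5% and 32.3%. Of the metallothioneins, small cysteine-rich proteins that bind zinc and copper, MT1E rose from 2314 and 2179 to 4373 and 4559.6 (log2 fold change 1.30) and MT1X by 0.45 (adjusted p = 0.0193), a call lost without Nut 0h replicate 1 or Nut 1h replicate 2 (0.34 and 0.33). Without the offset MT1X was not called, at 0.10 (adjusted p = 0.598). The most abundant one, MT2A, was not called at 0.15 (adjusted p = 0.175), and MT1F fell from 138 and 107 to 38.1 and 35.2 (log2 fold change -1.03). The promoter of SLC30A1 is shown because of this rise. It lies at chr1:211579112-211579411 (GRCh38.p14, RefSeq) on the minus strand and holds 2 matches to the metal response element that the zinc sensor MTF1 binds, in capitals and on the opposite strand.
SLC30A1: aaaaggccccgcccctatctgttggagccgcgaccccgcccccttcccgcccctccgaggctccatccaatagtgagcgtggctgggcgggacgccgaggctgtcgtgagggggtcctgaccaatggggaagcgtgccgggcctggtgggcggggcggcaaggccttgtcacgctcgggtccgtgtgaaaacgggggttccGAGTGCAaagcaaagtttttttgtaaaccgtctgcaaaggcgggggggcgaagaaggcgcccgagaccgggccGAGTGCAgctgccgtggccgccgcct
The letters searched were TGCACNC and TGCGCNC on both strands. Of the 4 metallothionein and zinc genes with a window, SLC30A1, MT1X and MT2A held a match, but so did 33.4% of all genes, and MT2A was not called.

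**Figure D3:**
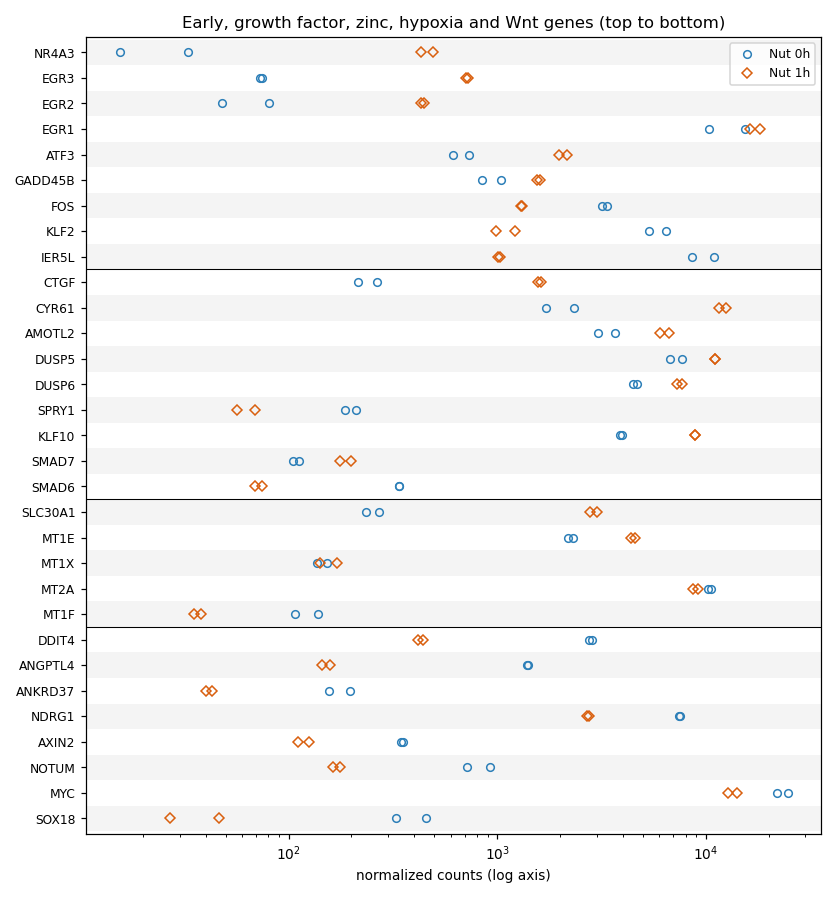
Normalized counts without GC adjustment (x axis, log scale) in the 2 Nut 0h libraries (blue circles) and the 2 Nut 1h libraries (orange diamonds) for immediate early genes, targets of YAP, ERK and TGF-beta, zinc genes, and hypoxia, Wnt and SOX genes, in 4 blocks from top to bottom. NR4A3, EGR3, EGR2, CTGF, CYR61 and SLC30A1 stand far to the right at Nut 1h, MT1X overlaps between the groups, and KLF2, IER5L, DDIT4, ANGPTL4 and SOX18 stand far to the left.

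Of 27 hypoxia-inducible genes 17 fell, 2 rose and 8 were not called (63.0% lower against 23.4% of all genes), with a median log2 fold change of -0.30. DDIT4 (chromosome 10, 74033678 to 74035794), which encodes the mTORC1 inhibitor REDD1 and can be induced by both hypoxia and p53, had 2755 and 2858 normalized counts with vehicle and 415 and 443 with Nutlin-3a, and fell by 2.02 (SE 0.10, adjusted p = 2.16e-09). ANKRD37 fell from 157 and 197 to 40.1 and 42.8 (log2 fold change -2.62), with 40% of its exonic bases opposite another gene, and NDRG1, a stress-induced growth suppressor, from 7417 and 7551 to 2751 and 2689 (log2 fold change -1.24). SLC2A1, the main glucose transporter, fell by 0.66. The hypoxia-responsive repressor BHLHE40 rose by 0.40, and VEGFA, the angiogenic growth factor, was not called (log2 fold change 0.05, adjusted p = 0.577) but was lower without the offset, at -0.38 (adjusted p = 0.00271). Without the offset 6 of the 27 were higher and 13 lower. Among the 12 hypoxia genes without exon overlap 10 fell and 1 rose, against 22.1% and 23.8% of all such genes. ANGPTL4, a lipase inhibitor that is induced by fasting and hypoxia and stood outside the list, fell from 1386 and 1411 to 158 and 145 (log2 fold change -2.09).

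Of 17 Wnt targets 10 fell, none rose and 7 were not called with the offset (58.8% lower against 23.4%), and 2 were higher and 14 lower without it. Among the 8 without exon overlap 3 fell, against 22.1% of all such genes. AXIN2, the negative regulator used to read out this pathway, fell from 345 and 355 to 110.4 and 126 (log2 fold change -1.27, adjusted p = 1.7e-06), with 25.3% of its exonic bases shared with another gene on the same strand, and NOTUM, an extracellular enzyme that inactivates Wnt proteins, from 927 and 714 to 177 and 164 (log2 fold change -0.90). Of 37 HOX and SOX genes 24 fell, none rose and 13 were not called (64.9% lower), with a median of -0.47. The genes that fell were 21 of 28 HOX genes and 3 of 9 SOX genes. Without the offset 31 were lower, 24 HOX and 7 SOX genes, and none higher. HOXA5 fell from 419 and 369 to 149 and 161 (log2 fold change -1.33), and its GC content lies near the middle of the range (49.6%). SOX18 had the largest fall among those averaging 50 normalized counts or more, from 453 and 328 to 27.1 and 46.6, and its log2 fold change was -3.44 without the offset and -1.69 with it, at a GC content of 69.3%. HOX genes are clustered and many overlap antisense transcripts. Among the 14 HOX and SOX genes with no exon overlap 8 fell, with a median of -0.20. Of all such genes 22.1% fell, with a median of 0.03.

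The other signalling lists were split. Of 24 Notch genes 3 rose and 8 fell (12.5% and 33.3%, against 22.7% and 23.4% of all genes), while without the offset 2 were higher and 17 lower. JAG1, a Notch ligand, rose by 0.87. The target genes NRARP and HES4 fell, with log2 fold changes of -0.72 and -0.56, or -1.51 and -2.85 without the offset. Of 24 genes of the integrated stress response 8 rose and 5 fell (33.3% and 20.8%, against 22.7% and 23.4% of all genes), but without the offset 9 were higher and 11 lower. SLC7A11, the cystine transporter, rose from 713 and 924 to 3504 and 2800.2 (log2 fold change 1.07) and the factor ATF5 by 1.41, while CEBPB, which encodes a leucine zipper factor, fell from 5292 and 4091 to 691 and 780.3 (log2 fold change -1.26). Of 20 NF-kB targets 6 rose and 4 fell, a balance that turned to 3 and 4 among the 14 without exon overlap, and to 4 higher and 9 lower of 21 without the offset. Among them were the apoptosis inhibitor BIRC3 with a log2 fold change of 0.60 and the inhibitor TNFAIP3 at 0.51 (not called without Nut 0h replicate 1 or Nut 1h replicate 1, at 0.35 and 0.45), while NFKB1, a subunit of the factor, fell by 0.99 and was not called without the offset (log2 fold change -0.15, adjusted p = 0.168). Among 19 clock genes 6 rose and 6 fell (31.6% each, against 22.7% and 23.4% of all genes). Without the offset 6 were higher and 7 lower (31.6% and 36.8%). The nuclear receptor NR1D2 rose by 0.74, while DBP and NPAS2, both clock transcription factors, fell, with log2 fold changes of -1.13 and -1.07. NRF2 targets were even, at 8 rises and 8 falls of 24 (33.3% each), beside 8 higher and 9 lower without the offset (33.3% and 37.5%).

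Gene lists for basic cell functions differed in direction. Cytosolic ribosomal proteins fell in 52 of 79 cases and rose in 13 (65.8% lower against 23.4% of all genes), with a median of -0.37, beside 45 lower and 14 higher without the offset, and among the 33 without exon overlap 24 fell and 2 rose. RPL26 had the largest fall, from 4913 and 4330.1 to 1111 and 1173 normalized counts (log2 fold change -2.38, adjusted p = 1.25e-10), followed by RPS27 at -1.24 and RPL28 at -1.13, while RPL39 rose from 3104 and 3286 to 8236 and 8748 (log2 fold change 1.22) and RPL21 by 0.95. Ribosomal protein genes have many processed pseudogenes with near-identical sequence, so their counts depend on how multiply mapped reads were handled. Nuclear genes of the respiratory chain and ATP synthase fell in 46 of 75 cases and rose in 6 (61.3% and 8%, median -0.40), beside 39 lower and 15 higher without the offset, with 20 falls and 3 rises among the 37 without exon overlap, for example COX6A1 of cytochrome c oxidase at -1.41 and NDUFB11 of complex I at -1.52. Of 37 lysosomal and V-ATPase genes 19 fell and 7 rose (51.4% and 18.9%), beside 16 lower and 11 higher without the offset. However, among the 19 without exon overlap 7 fell, 5 rose and the median was 0.0092. The shares of all genes without exon overlap were 22.1% lower and 23.8% higher. Of 32 ubiquitin-conjugating enzymes 14 were higher and 10 lower without the offset (43.8% and 31.2%, against 34.5% and 32.3% of all genes). With it 15 fell and 1 rose (46.9% and 3.12%, against 23.4% and 22.7%). Among those that fell were UBE2D1 at -1.10 and UBE2D2 at -0.89, which had -0.13 (not called) and -0.51 without the offset.

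Of 66 genes of ribosome biogenesis 36 rose and 8 fell (54.5% higher against 22.7%, median 0.22), and without the offset 38 of 67 were higher and 19 lower. GAR1 of the H/ACA ribonucleoprotein rose from 735 and 772 to 1799 and 1951 (log2 fold change 0.85) and NIP7, a factor of 60S assembly, by 0.74, whereas NOP10, also of the H/ACA complex, fell by 1.38. Of 40 splicing factors of the SR and hnRNP families 22 rose and 9 fell, and of 40 heat shock proteins and co-chaperones 20 rose and 7 fell. The shares that fell were 22.5% and 17.5%, and more than that rose in both, against 22.7% higher and 23.4% lower of all genes. Without the offset 31 and 22 were higher and 5 and 10 lower. DNAJB6, a co-chaperone, rose by 0.94 and DNAJB9, a chaperone of the endoplasmic reticulum, from 255 and 279.8 to 784 and 761 (log2 fold change 0.75), while HSPB1, the small heat shock protein HSP27, fell by 0.39. Among members without exon overlap 17 of 30 ribosome biogenesis genes rose and 4 fell. For splicing factors these counts were 12 and 4 of 21, and for heat shock proteins and co-chaperones 14 and 4 of 24. Of all genes without exon overlap 23.8% rose and 22.1% fell. The lists of mitosis and of centrosome genes depended on the offset. Of 60 genes of mitosis and cytokinesis 36 were higher and 12 lower without it, whereas with it 10 rose and 15 fell, and the median was -0.04. Of 57 centrosome and cilium genes 39 were higher and 7 lower without it (68.4% and 12.3%), and 17 rose and 13 fell with it (29.8% and 22.8%). Of 50 DNA replication genes 27 were higher and 12 lower without it (54.0% and 24.0%). With it 18 rose and 9 fell (36.0% and 18.0%), although the median was -0.01. CENPF of the kinetochore rose in both fits (1.16 and 0.55), and UBE2C and UBE2S, the ubiquitin-conjugating enzymes of the anaphase-promoting complex, fell, with log2 fold changes of -0.53 and -1.16.

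Among the remaining lists of basic functions, of 14 genes of cohesin and CTCF 7 rose and 2 fell. Of 26 genes of cholesterol synthesis 10 rose and 3 fell, although their median was -0.03. The shares that fell were 14.3% and 11.5%, against 23.4% of all genes. The shares that rose were both above the 22.7% of all genes. Without the offset 12 cohesin and CTCF genes were higher and 2 lower (85.7% and 14.3%, against 34.5% and 32.3% of all genes). For cholesterol synthesis 9 were higher and 10 lower without it (34.6% and 38.5%). Among members without exon overlap 4 of 9 cohesin and CTCF genes rose and 2 fell. For cholesterol synthesis these counts were 3 and 1 of 11, and for all genes without exon overlap the shares were 23.8% and 22.1%. Of 72 mitochondrial ribosomal proteins 11 rose and 23 fell (15.3% and 31.9%, against 22.7% and 23.4% of all genes), while without the offset 29 of 74 were higher and 30 lower. Of 32 genes of vesicle coats and secretory transport 5 rose and 12 fell (15.6% and 37.5%). Without the offset 17 of 33 were higher and 8 lower (51.5% and 24.2%). Among the 10 without exon overlap 1 rose and 3 fell. Of 27 genes of glycolysis and glucose transport 8 rose and 12 fell (29.6% and 44.4%), and 7 were higher and 13 lower without the offset (25.9% and 48.1%). Rises and falls were about even with the offset for 8 other lists and the epithelial markers, but for several of them not without it. The shares of all genes were 22.7% and 23.4% with it, and 34.5% higher and 32.3% lower without. Proteasome subunits showed 12 rises and 11 falls of 39 with the offset, and 19 higher and 13 lower of 40 without it. Factors of mRNA decay had 14 and 14 of 51 with it, and 27 and 13 of 52 without. Translation factors had 10 and 13 of 44 with it, and 22 and 15 without. Aminoacyl-tRNA synthetases had 7 and 8 of 23 with it, and 9 and 7 without. Coactivators and Mediator subunits had 15 and 15 of 50 with it, and 16 and 18 without. The snoRNA host genes and related noncoding RNAs had 9 and 8 of 26 with it, and 14 and 7 of 27 without. KLF and SP factors had 4 and 4 of 21 with it, and 9 and 10 of 22 without. Histone genes had 2 and 2 of 16 with it, and 2 and 6 of 20 without, and the epithelial markers 2 and 2 of 12 with it, and 3 and 7 without.

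ZNF zinc finger genes formed the largest list. Of 371 tested 225 were higher and 84 lower without the offset (60.6% and 22.6%, against 34.5% and 32.3% of all genes). Of the 367 with a GC content 170 rose and 53 fell with the offset (46.3% and 14.4%, against 22.7% and 23.4%), with a median of 0.33. ZNF136 rose from 14.5 and 19.7 to 89.3 and 93.1 normalized counts, ZNF699 from 44.5 and 59.2 to 265 and 250.4 and ZNF587B from 174 and 179 to 773 and 750.1, with log2 fold changes of 1.75, 1.72 and 1.72. ZNF503 fell from 4073 and 3238 to 690.3 and 722 (log2 fold change -1.36). Among the 179 members without exon overlap 86 rose and 28 fell, with a median of 0.32, where 23.8% and 22.1% of all such genes did. Many of these genes lie in clusters of related copies, and reads shared between copies were not resolved here.

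**Figure D4:**
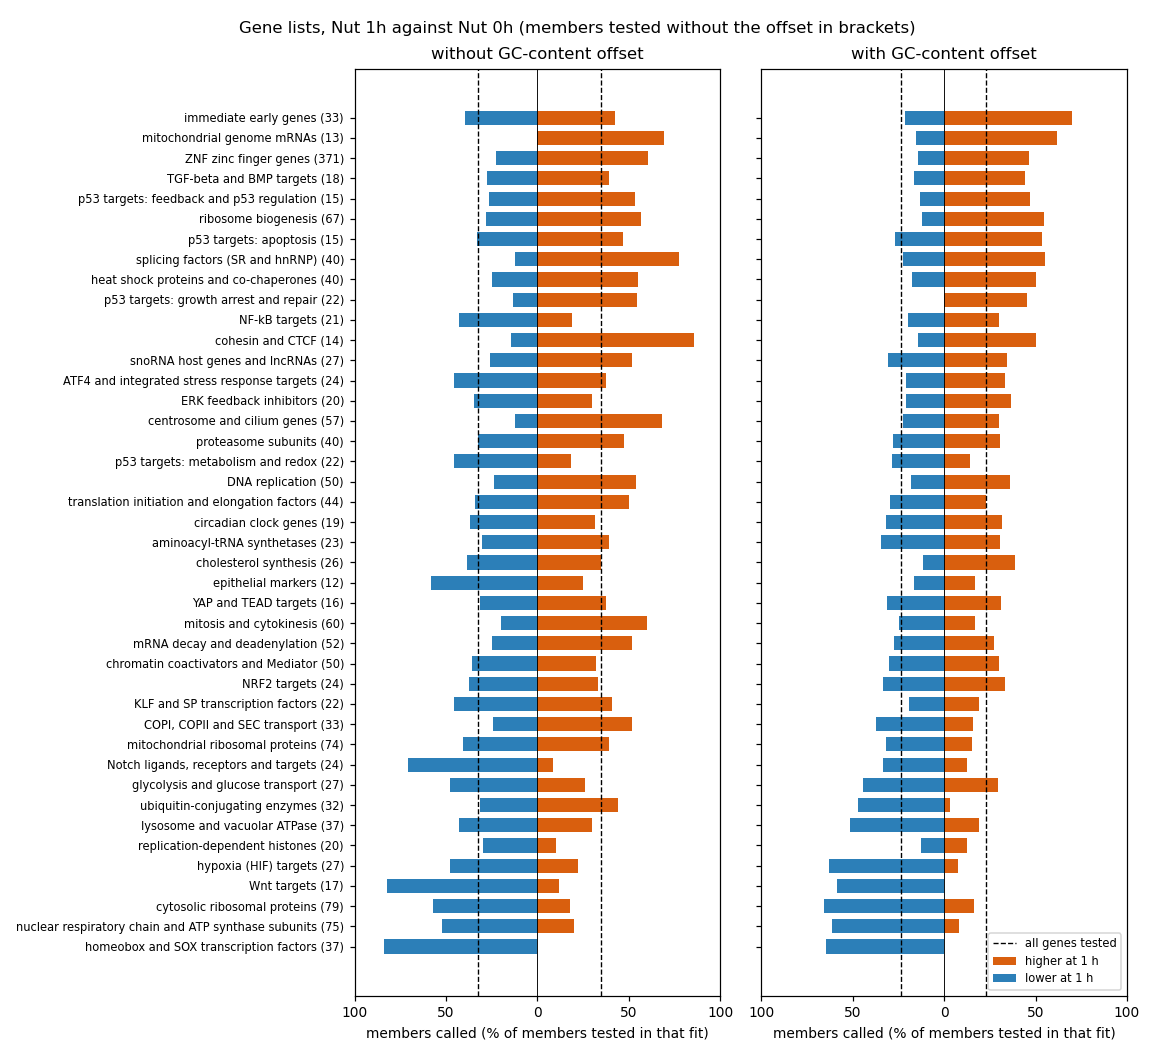
Share of the tested members of each gene list (rows, for lists with at least 10 members tested) called higher (orange, to the right) or lower (blue, to the left) at Nut 1h, in percent, without the GC-content offset on the left and with it on the right, ordered by the median log2 fold change with the offset. Dashed lines are the shares among all genes tested: with the offset immediate early genes pass 22.7% by far to the right, and ribosomal protein, respiratory chain, hypoxia, Wnt, HOX and SOX genes pass 23.4% to the left.

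Transcripts of the mitochondrial genome did not move as 1 unit. Without the offset 9 of 13 mRNAs were higher (69.2%, against 34.5% of all genes) and none lower (against 32.3%), and with it 8 rose and 2 fell (61.5% and 15.4%, against 22.7% and 23.4%). MT-ND6 had 14959.6 and 18783 normalized counts with vehicle and 49376 and 43037 with Nutlin-3a (log2 fold change 0.97), MT-ND5 rose by 0.79 and MT-ATP6 by 0.70, whereas MT-ND3 fell by 0.59 but was not called without the offset, at 0.05 (adjusted p = 0.683). The ribosomal RNA MT-RNR1 fell from 98748 and 132115 to 47367 and 48885 (log2 fold change -1.56, SE 0.10, adjusted p = 3.11e-08). MT-RNR2 had -0.71 with the offset and was not called without it, at -0.23 (adjusted p = 0.0823). Without the offset it was called lower by DESeq2 and with the 4 libraries alone (both -0.26), and with no filter on low counts (-0.27). Of 22 mitochondrial tRNA genes 3 rose and 10 fell (13.6% and 45.5%, against 22.7% and 23.4% of all genes). Without the offset 5 of the tRNA genes were higher and 7 lower (22.7% and 31.8%, against 34.5% and 32.3%), so that the lower share was near that of all genes. Whether RNA of this size was kept in the libraries is not given in the sources used here. Among other RNA classes, 215 of 616 processed pseudogenes rose and 80 fell (34.9% and 13%, median 0.53), and 28 of 59 small nucleolar RNA genes rose and 2 fell (47.5% and 3.39%, median 1.02). Of 1793 long noncoding RNA genes 340 rose and 153 fell (19% and 8.53%, median 0.21), both below the shares of all genes. Of 13054 protein-coding genes 2905 rose and 3483 fell (22.3% and 26.7%, median -0.02). Among long noncoding RNAs, NEAT1, the scaffold of paraspeckles, rose from 1608 and 2467 to 8599 and 6682 (log2 fold change 1.51), and MALAT1, another abundant nuclear RNA, fell from 6425 and 9268 to 5613 and 3776 (log2 fold change -1.26).

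The largest changes over all genes were not those of p53 targets. Genes that averaged 100 normalized counts or more, called in the same direction in both fits and with no overlap between the groups, were ranked by the log2 fold change with the offset. The 15 largest rises were 8 protein-coding genes (NR4A3, EGR3, EGR2, SLC30A1, CTGF, POMK, CYR61 and TMPPE), 6 pseudogenes and the tRNA gene MT-TN, which went from 1.93 and 2.82 to 897 and 828 normalized counts. Of the pseudogenes, EEF1A1P9, a copy of the elongation factor gene EEF1A1, went from 16.4 and 18.8 to 342 and 381, and NPM1P27, a copy of NPM1, from 309 and 297 to 2601 and 2648. POMK, a kinase for the sugar chain of dystroglycan, rose from 95.7 and 97.7 to 818 and 755 (log2 fold change 2.53). Reads of a pseudogene and its parent cannot be told apart with certainty in these counts.

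The 15 largest falls held 11 protein-coding genes, and 11 of the 15 share exonic bases with another gene of the matrix, 7 of them over more than 20% of their length. Of the 15 largest rises 5 share exonic bases and none over more than 20%, and of all tested genes with a GC content 47.0% share some and 11.4% share more than 20%. TXNDC5, a protein disulfide isomerase, fell from 1893 and 1534 to 60.2 and 64.2 normalized counts (log2 fold change -4.65), and 60.9% of its exonic bases also belong to a read-through gene on the same strand. SRXN1, which repairs oxidized peroxiredoxins, shares 90.7% with another gene and fell from 678 and 492 to 27.1 and 49.1 (log2 fold change -3.79), and MGAT2, a glycosyltransferase, lies with 92.0% of its exonic bases opposite another gene and fell by 4.16. PDXP, a pyridoxal phosphatase, had no exon overlap with a gene of the matrix and fell from 1041 and 786 to 34.1 and 45.3 (log2 fold change -3.26). At Nut 10h the mean of 14 of these 15 genes, all but LRRC26, and of 12 of the 15 largest rises was within 2-fold of Nut 0h, with MT-TN, SLC30A1 and 1 pseudogene as exceptions. TXNDC5, for example, had 1697 and 1226 normalized counts at Nut 10h. Genes with an exon overlap of over 50% had a wider range of log2 fold changes than genes with none. The 10th and 90th percentiles were -1.24 and 1.16 for overlap on the same strand and -1.11 and 1.25 on the opposite strand, beside -0.61 and 0.78 for genes without exon overlap. Whether the counting used the strand is not given in the sources used here, and the part of exon overlap in these changes was not tested.

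**Figure D5:**
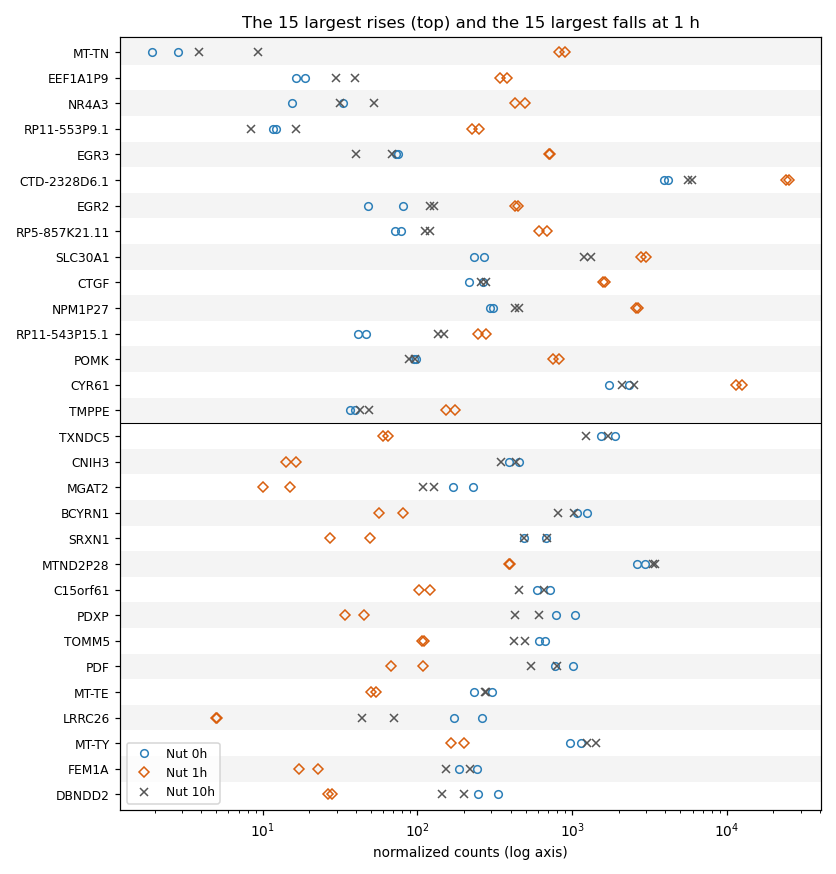
Normalized counts (x axis, log scale) of the 15 genes with the largest rises (upper block) and the 15 with the largest falls (lower block) at Nut 1h, in the 2 libraries each of Nut 0h (blue circles), Nut 1h (orange diamonds) and Nut 10h (grey crosses). The genes were chosen for having no overlap between Nut 0h and Nut 1h, so the separation of these groups was fixed in advance. The Nut 1h libraries stand apart in every row, and most Nut 10h libraries lie beside Nut 0h, with SLC30A1 between them.

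In a ranking limited to protein-coding genes without exon overlap, chosen after seeing the data, the first rises were NR4A3, EGR2, SLC30A1 and CYR61, followed by NUAK2, an AMPK-related kinase, which rose from 295 and 219 to 781 and 867 (log2 fold change 2.30). TUFT1, a protein first found in enamel, rose from 417 and 389.7 to 1308 and 1282 (log2 fold change 1.77), the polarity gene PARD6B from 418 and 492 to 2240.3 and 2039 (log2 fold change 1.57), and GADD45B, a stress sensor related to GADD45A, from 1038 and 841 to 1550.1 and 1605 (log2 fold change 1.56). The first falls after PDXP were C4orf48 (log2 fold change -2.32), ANGPTL4, DDIT4, SPRY1 and YBX3, a cold shock domain protein that went from 25718 and 22309 to 9695 and 10272 (log2 fold change -1.98). FZD2, a Wnt receptor, fell from 1139 and 1027 to 229 and 269 (log2 fold change -1.61).

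Some large changes were seen only without the offset. The 5 largest higher calls of this kind, among genes with a mean of at least 100, were RP11-690D19.3, ZNF117, FSD1L, ALG10B and CAPS2, with log2 fold changes between 1.25 and 1.40, which became 0.24 to 0.47 with it. The 5 largest lower calls were SHISA8, SCARF2, CITED4, NRTN and AL161626.1, between -2.84 and -2.12. NRTN, a ligand of the GDNF family with a GC content of 73.8%, went from 703 and 604 to 122 and 147 normalized counts, and from 352 and 383 to 345 and 379 after GC adjustment (log2 fold change -0.02, adjusted p = 0.887). AL161626.1, with a GC content of 79%, turned from -2.12 to 0.80. The 634 genes over 65% had a median GC content of 66.7%, and whether this had a part in the turn was not tested. AL161626.1 was lower, at -0.41, where the trend was taken as medians in 50 bins of GC content.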

How the data were processed

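RNA was isolated with the RNeasy Mini Kit from frozen pellets of HCT116 cells. Per the study's methods, the authors trimmed paired reads with Trim Galore 0.6.6, aligned them to GRCh37.p13 with STAR 2.7.0f and counted them per gene with featureCounts (Subread 2.0.0). The library kit, the strand setting and the handling of multiply mapped reads are not given in the sources used here. The deposited counts are whole reads per Ensembl gene, not normalized. The authors' table of fold changes and p-values from DESeq2 1.36.0 was used for gene names only.

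Genes were filtered with filterByExpr, scaled by TMM and tested with edgeR 4.0.16's quasi-likelihood test on all 6 libraries with condition as the only term, and p-values were adjusted after Benjamini and Hochberg over all genes tested (threshold 0.05). With 2 replicates per group, p-values measure the spread between these libraries only. The offset was a loess (span 0.4) of each library's deviation from the mean log2 CPM of all 6 libraries on GC content. GC content was that of the gene's longest transcript in GENCODE v44 lifted to GRCh37. The 428 tested genes without a GC content were tested without the offset only. Alternatives included other scalings, filters, DESeq2 1.42.0 and leaving out each library. The deviations of same-numbered libraries correlated with r = -0.13 between Nut 0h and Nut 1h, -0.12 between Nut 1h and Nut 10h and 0.20 between Nut 0h and Nut 10h. Not every pair was over 0.1, so the numbers were not taken as pairs.

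The comparison, the 47 gene lists and the genes named were chosen with earlier results of these data known. Named were up to 3 rises and 3 falls per list (mean of at least 50 normalized counts), MDM2, CDKN1A, DDIT4 and p53 targets, the 15 largest rises and falls (mean of at least 100), and the 5 largest changes in each direction lost with the offset. EGR1, FOSB, JUN, SRF, MT2A and VEGFA were chosen after their values were seen. Some genes that the rule names are not reported here. Analyses used R 4.3.3, and figures Python 3.11.15 and matplotlib 3.10.9.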

Additional observations from a re-analysis of the deposited data

How the results depend on the processing

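The number of genes called stayed within 1.5 times the reported 11077 without and 7439 with the GC-content offset under other scalings, other filters on low counts, DESeq2, a stricter adjusted p, length offsets and the 4 libraries alone. It was lower by construction where an absolute log2 fold change of at least 1 was asked (3974 and 1321), and where only genes without exon overlap were kept (5748 and 3920), a choice made after seeing the data. With no filter on low counts the calls with the offset were 2730 higher and 4272 lower. Leaving out 1 library gave 8791 to 11438 calls without the offset and 4621 to 7615 with it. The lowest values were those without Nut 1h replicate 1, where 1 sample stands for the group and is assumed to vary like the others. Of the 47 lists 20 had more members higher than lower with the offset, 14 with no filter on low counts, 25 at a minimum of 1 CPM, 8 at an absolute log2 fold change of at least 1, 20 to 26 with 1 library left out, and 19 to 22 under the others. The correlation of the log2 fold change with GC content was -0.78 in protein-coding genes, -0.81 at a mean of at least 100, and -0.66 between Nut 1h replicate 2 and Nut 0h replicate 2.

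Replicate numbers as a block gave 10979 calls without and 7259 with the offset, and the crossed pairing 12131 and 8613. Among genes named, 4 results changed sign while called in either setting. Values that were called in neither also changed sign, such as PLK3 and XPC without the offset. Without the offset PLK3 had 0.24 under a length offset. With it AL161626.1 had -0.25 with no filter and -0.41 with GC bins, and NRTN had 0.34 at a minimum of 1 CPM. The cause was not tested. Calls of named genes lost on leaving out 1 library are given beside those genes, and further ones were SFN, XPC and RCHY1 with the offset and BHLHE40, JUN, MALAT1, TP53I3 and VEGFA without it. Calls with the offset were also lost by DESeq2 for APAF1 and MT1X, and with no filter for APAF1, BAX, FDXR, MT1X, SESN2, SFN, TP53I3 and XPC, at a minimum of 1 CPM for APAF1 and HES4, with the GC content of merged exons for XPC and with a GC-content and length offset for AL161626.1. Calls without it were also lost by DESeq2 for EGR1 and MALAT1, with RLE size factors for EGR1, and under a length offset for DNAJB6 and TP53I3. Calls without the offset were also gained, for example for MT2A with no filter and with the 4 libraries alone, and for FOSB with no filter.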

Other observations

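Calls also differed with transcript length, without a steady order. With the GC-content offset, 30.1% of the genes with transcripts of 5770.0 bases or longer were higher at Nut 1h and 19.8% lower, beside 17.7% higher and 27.5% lower between 1665 and 2746 bases, and 22.2% higher and 19.7% lower up to 1664 bases. Of 215 transcribed unprocessed pseudogenes 70 (32.6%) were called higher and 16 lower, and of 41 microRNA genes 15 (36.6%) higher and 3 lower, beside 22.7% higher and 23.4% lower of all genes. Most members of both classes, 129 and 23, were not called.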
